A study of Mus musculus with 2 samples.

Results

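Somatic cells of XX (ovarian) and XY (testicular) foetal mouse gonads were compared after 24 h of culture with DMSO, the vehicle of the inhibitors used elsewhere in the study. The comparison was chosen by the library labels and not by any measured value. It holds 8 of the 39 somatic libraries that carry a group label: the 4 XX libraries numbered 4, 5, 6 and 9, and the 4 XY libraries numbered 2, 3, 4 and 5. All gonads were taken at embryonic day 12.5 (E12.5) from wild-type embryos of Swiss mice crossed to mice carrying an *Oct4*-eGFP transgene on a 129svJT2 background. In this transgene the regulatory sequence of *Oct4* (*Pou5f1*) drives green fluorescent protein in germ cells, so the GFP-negative cells recovered by sorting were the somatic fraction. Embryos were sexed by eye from the presence or absence of testis cords, each gonad was cultured with its mesonephros attached on a membrane, and the mesonephros was removed before sorting. Each library was made from the pooled cells of several gonads and was treated as 1 biological replicate. The wider study asked how fibroblast growth factor (FGF) receptor and MEK1/2 signalling act in the developing testis, with further XX and XY groups before culture, after 72 h with DMSO, and XY groups given an FGF receptor inhibitor (FGFRi) or a MEK1/2 inhibitor (MEKi). Those before culture and at 72 h are used here only to place the 24 h values. Autosomal genes are described, and genes on the X and Y chromosomes were left out.

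The foetal gonad begins as a bipotential ridge whose supporting cells become Sertoli cells in the testis or pre-granulosa cells in the ovary. In XY supporting cells SRY switches on *Sox9*, and Sertoli cells then secrete anti-Müllerian hormone and desert hedgehog, enclose the germ cells in cords and induce foetal Leydig cells, which make androgens. In XX supporting cells R-spondin 1 and WNT4 signal through β-catenin, and together with the forkhead factor FOXL2 they hold the ovarian fate, while germ cells enter meiosis under retinoic acid. The testis also gains an arterial vessel and a larger blood supply at this stage.

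The measure was the number of unique molecular identifiers (UMIs, tags that mark single captured RNA molecules) assigned to each gene by sequencing of transcript 3′ ends. Total counts ran from 2109481 to 4836550 per library and 20109 to 23096 genes had at least 1 count. The largest count of any gene was 8680 in XX library 6 and 9710 in XY library 4, which had the lowest and highest totals. The count of the most abundant gene thus rose far less than the depth. Whether fold changes of the most abundant genes are compressed by this was not tested. Levels are given as counts per 1000000 (CPM) after scaling by trimmed mean of M-values (TMM). Each library resembled its own group more than the other: Pearson's r of log2 CPM over genes was 0.961 to 0.976 within a group and at most 0.926 between groups. The first principal component held 59.3% of the variance and put the 4 XX libraries at 39.7 to 49.1 and the 4 XY libraries at −47.9 to −41.9. On the second component (9.2%), which did not separate the groups, XX library 6 (−29.1) and XX library 9 (28.9) lay furthest apart, as did XY libraries 3 (−20.8) and 5 (19.6). No pair of libraries agreed within counting noise, since the chi-square statistic per degree of freedom was 2.71 or more in each pair of a group. The 8 libraries belong to the same library set.

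Of 14543 autosomal genes tested by edgeR's quasi-likelihood test, 2821 were differentially expressed genes (DEGs), defined by a Benjamini-Hochberg false discovery rate (FDR) below 0.05 and a fold change of at least 1.5. XX cells had the higher level for 1284 (8.83% of genes tested) and XY cells for 1537 (10.6%). Counts of list members given below are to be set beside these shares. The differences were at least 2-fold for 1806 DEGs, at least 4-fold for 635 (299 higher in XX, 336 higher in XY) and at least 16-fold for 109 (61 and 48). Protein-coding genes made up 2544 of the DEGs and long non-coding RNAs 162, of which 103 were higher in XX and 59 in XY. The median log2 fold change, XX minus XY, over all autosomal genes tested was −0.03. Tests of whether the fold change itself exceeded 1.5-fold called fewer genes, 698 higher in XX and 830 higher in XY by edgeR's glmTreat and 543 and 567 by limma's voom and treat. As each library was a mixture of cell types, fewer cells of a type and less RNA per cell cannot be told apart in any value below.

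**Figure D1:**
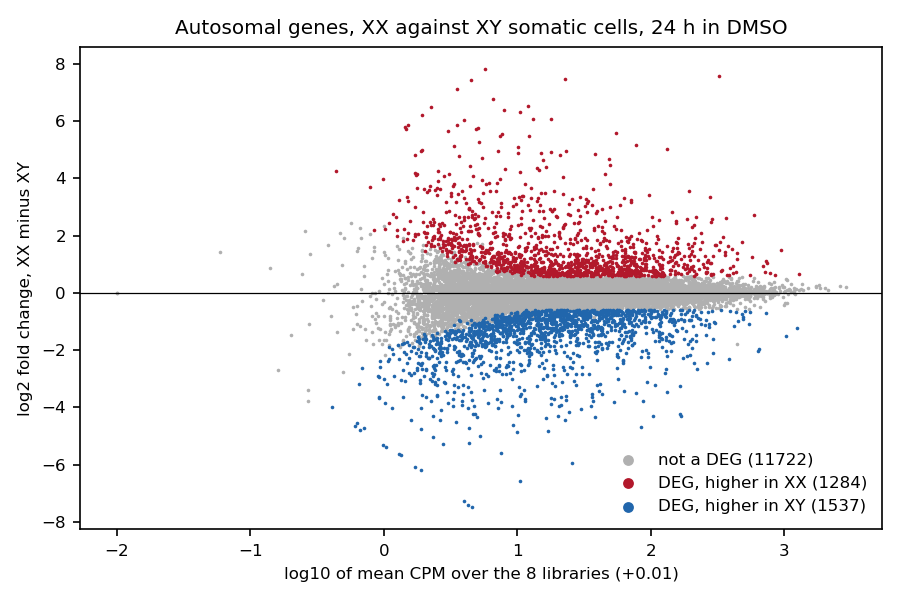
Log2 fold change (XX minus XY) of each autosomal gene tested against the log10 of its mean CPM over the 8 libraries at 24 h in DMSO, with DEGs higher in XX in red (1284), DEGs higher in XY in blue (1537) and other genes in grey. DEGs lie on both sides of 0 over the whole range of expression levels.

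Among DEGs averaging 5 CPM or more, the largest differences in favour of XX cells were at the Iroquois homeobox genes. *Irx3*, a transcription factor of ovarian pre-granulosa cells, was at 712, 525, 716 and 610.2 CPM in XX libraries 4, 5, 6 and 9 and at 4.65, 1.74, 2.30 and 6.29 CPM in XY libraries 2, 3, 4 and 5. Its log2 fold change was 7.56 (SE 0.22, adjusted p = 1.08e-32). Genes whose groups overlapped were left out of this ranking, so every XX library was above every XY library by that choice. Its neighbour *Irx5* was at 45.0 ± 6.38 CPM (SD, n = 4) in XX cells, and the XY libraries held 3 counts of it in all, a ratio of 220.4 with a 95% exact counting interval of 75.0 to 1072. Without XY library 3 its fitted log2 fold change was 8.28 in place of 7.45. The antisense transcript *Irx3os* was at 12.8, 13.7, 6.70 and 12.2 CPM in XX cells and had no count in any XY library, so that it was at least 57.9-fold higher in XX against a floor of 3 counts over the 4 XY libraries. These genes lie together on chromosome 8 (GRCm39, GENCODE M39: *Irx3* at chr8:92525153-92528695, *Irx3os* at chr8:92527040-92534167 on the other strand, *Irx5* at chr8:93084253-93102914). The study's code for its germ cell libraries assigned reads to exons by strand, but the setting used for the somatic libraries is not given in the sources used here. Without it, reads from the stretch where *Irx3* and *Irx3os* overlap cannot be told apart.

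Among the 12 DEGs with the largest difference in favour of XX that were expressed at 5 CPM or more on average and did not overlap between groups, several encode secreted or surface proteins. *Cga*, the common α subunit of the glycoprotein hormones, was at 7.64, 12.8, 12.4 and 19.3 CPM in XX cells, with 1 count over the 4 XY libraries (188-fold, interval 33.2 to 7461). A processed pseudogene beside it, *Gm12361*, was also higher in XX, at 20.7 ± 3.59 CPM against 3 counts in XY cells. Pseudogene counts can include reads of the parent gene, so this value is uncertain. *Gpr55*, a G protein-coupled receptor for lysophospholipids, was at 25.9 ± 4.58 against 0.24 ± 0.479 CPM (XX against XY), and the cation channel gene *Trpc7* at 35.3 ± 7.39 against 0.483 ± 0.205 CPM. *Hsd17b2*, an enzyme that inactivates oestradiol and testosterone, was at 9.94 ± 2.73 CPM in XX cells, with 2 counts in XY cells (69.9-fold, interval 18.9 to 584). The homeobox gene *Isx* was at 23.8 ± 6.81 CPM in XX cells, with 3 counts in XY cells (110.4-fold, interval 37.4 to 539), and *Lypd8l* at 15.6 ± 4.34 CPM, with 2 counts in XY cells. *Klhdc7a* was at 15.1 ± 4.06 against 0.275 ± 0.345 CPM. The fitted log2 fold change moved from 6.52 to 7.45 without XY library 2 for *Isx* and from 6.32 to 7.29 without XY library 5 for *Gm12361*, and all XY counts of *Cga*, *Gpr55*, *Hsd17b2* and *Lypd8l* were in 1 library each. *Sprr2d* was at 106 ± 46.6 against 2.15 ± 0.408 CPM, but it belongs to a family of near-identical genes and its reads may be split among them.

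In favour of XY cells, the largest difference was that of the potassium channel subunit gene *Kcns2*, at 24.0, 22.8, 23.6 and 13.0 CPM in XY cells and with 2 counts over the 4 XX libraries (125-fold, interval 34.3 to 1037). *Sostdc1*, a secreted inhibitor of BMP and WNT signalling, was at 52.9, 52.5, 43.9 and 54.6 CPM in XY libraries 2 to 5 and at 1.04, 1.23, 0 and 0.394 CPM in the XX libraries (log2 fold change −5.95, SE 0.29, adjusted p = 6.85e-23). Both were chosen from genes whose groups did not overlap, so every XY library was above every XX library by that choice. *Cbln1*, a secreted protein of the C1q family, was at 6.37 ± 1.30 against 163 ± 21.4 CPM (log2 fold change −4.70), and *Smoc2*, a matricellular calcium-binding protein, at 16.1 ± 1.43 against 319 ± 29.3 CPM (−4.31). *Prokr2*, a prokineticin receptor, was at 3.52 ± 1.49 against 72.3 ± 6.83 CPM, and *Nt5e*, the ecto-enzyme CD73 that makes adenosine, at 1.38 ± 0.603 against 31.4 ± 12.2 CPM. *Erbb3*, a neuregulin receptor, was at 14.8 ± 6.19 CPM in XY cells, with 3 counts in XX cells (58.2-fold, interval 19.7 to 285). The transcription factor gene *Msc* was at 0.667 ± 0.516 against 19.02 ± 2.20 CPM, the calcium-binding protein gene of muscle *Casq2* at 1.83 ± 0.985 against 43.7 ± 13.0 CPM, the atypical cadherin gene *Fat3* at 1.04 ± 0.735 against 33.0 ± 10.2 CPM and the RAS effector gene *Rassf5* at 0.565 ± 0.71 against 17.9 ± 2.79 CPM. *Sox10*, a SOXE transcription factor gene, completed this group of 12, with 142 counts in XY and 3 in XX libraries. Leaving out 1 XX library moved the fitted log2 fold change from −5.58 to −6.57 for *Erbb3* (library 6) and from −4.61 to −5.79 for *Rassf5* (library 5).

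**Figure D2:**
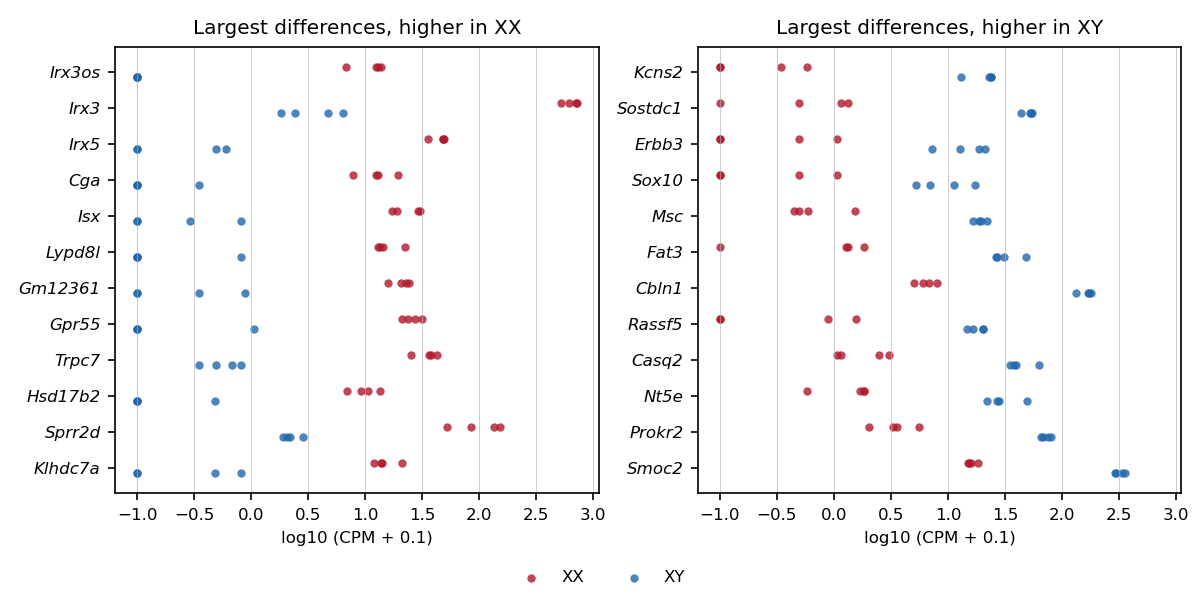
Log10 of CPM plus 0.1 in each of the 8 libraries (red, XX; blue, XY) for the 12 DEGs with the largest difference higher in XX (left) and the 12 higher in XY (right), from those averaging 5 CPM or more whose groups did not overlap. Points at −1 are libraries with no count, as for *Irx3os* in all 4 XY libraries.

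Genes of the supporting cell lineages were divided by gonad type. All 15 pre-granulosa genes tested were DEGs higher in XX, with a median log2 fold change of 2.72, and all 4 Sertoli transcription factors were DEGs higher in XY, with a median of −2.35. The lists were chosen with earlier results of these data known, so these counts describe the members and are no independent test. The pre-granulosa list also holds *Wnt4*, *Lgr5*, *Axin2*, *Lef1* and *Bmp2*, which are counted again below among the WNT and BMP genes. *Foxl2*, the forkhead factor that maintains granulosa cells, was at 156, 128, 178 and 143 CPM in XX and at 2.50, 6.94, 4.22 and 1.97 CPM in XY libraries (log2 fold change 5.15, SE 0.25, adjusted p = 1.74e-23). *Runx1*, another transcription factor of foetal granulosa cells, was at 94.0 ± 12.1 against 4.19 ± 1.29 CPM and *Msx1* at 40.6 ± 13.0 against 3.59 ± 1.07 CPM. *Fst*, which encodes the activin antagonist follistatin, was at 94.4, 69.9, 89.0 and 120.2 CPM in XX and at 3.22, 4.21, 2.68 and 4.72 CPM in XY libraries (log2 fold change 4.67, SE 0.23, adjusted p = 2.9e-23). The groups did not overlap for any of these genes. *Kctd14* was at 1020.4 ± 80.7 against 155 ± 46.0 CPM and the cell cycle inhibitor gene *Cdkn1b* at 142 ± 23.6 against 42.1 ± 4.26 CPM. *Foxl2os*, antisense to *Foxl2*, was at 2.13 ± 1.10 against 0.321 ± 0.389 CPM, and its call was lost without XY library 4.

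*Sox9*, the central Sertoli transcription factor, was at 411, 316, 292 and 267 CPM in XY and at 60.7, 70.2, 66.5 and 87.9 CPM in XX libraries (log2 fold change −2.17, SE 0.20, adjusted p = 2.76e-13). The groups did not overlap, and no XX library was without *Sox9* counts. Its relative *Sox8* was at 2.47 ± 0.284 against 14.6 ± 9.39 CPM, and *Dmrt1*, a DM-domain factor of Sertoli and germ cells, at 3.87 ± 0.709 against 16.8 ± 6.48 CPM. The remaining factor of that list, *Sox10*, is also a glial gene and had 142 counts in XY and 3 in XX libraries. Of 20 Sertoli cell product genes, 13 were DEGs higher in XY, 2 were DEGs higher in XX and 5 were neither (median log2 fold change −1.80). *Dhh*, the hedgehog ligand that Sertoli cells send to Leydig precursors, was at 94.7, 53.0, 67.7 and 54.3 CPM in XY and at 6.60, 5.40, 6.22 and 3.15 CPM in XX libraries (log2 fold change −3.64, SE 0.30, adjusted p = 9.73e-15). *Gdnf*, a growth factor for germ cells, was at 1.56 ± 0.598 against 21.1 ± 0.731 CPM. The collagen gene *Col9a3* and the cystatin gene *Cst9* were at 9.53 ± 3.13 against 198 ± 64.6 CPM and 17.0 ± 3.97 against 315 ± 55.2 CPM, and prostaglandin D synthase, *Ptgds*, was at 31.8 ± 8.84 against 222 ± 65.6 CPM. *Amh*, which encodes anti-Müllerian hormone, was at 5.36, 4.46, 3.64 and 5.50 CPM in XY and at 0, 0.981, 0 and 0 CPM in XX libraries (log2 fold change −3.62), so that XX library 5 held all of the XX counts. The study saw robust staining of AMH protein in XY gonads after 72 h with DMSO, another measure and time. How fully *Amh* transcripts were captured and assigned by sequencing of 3′ ends was not tested. In the other direction, *Gatm*, an enzyme of creatine synthesis, was at 31.7 ± 8.11 against 17.7 ± 4.83 CPM and the tight junction gene *Cldn11* at 60.4 ± 14.7 against 34.8 ± 13.4 CPM, both DEGs higher in XX, although the libraries of the groups overlapped for *Cldn11*. Both fell short of the threshold by glmTreat. *Inha* (log2 fold change 0.50), *Inhbb* (0.45), *Clu* (−0.20), *Mro* (0.07) and *Hsd17b1* (0.36) were not DEGs.

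Among the early gonad transcription factors, which both gonads use, 5 of 13 tested were DEGs that XX cells held at the higher level and 3 were higher in XY. *Wt1* was at 607 ± 67.8 against 268 ± 11.9 CPM, *Gata6* at 287 ± 8.76 against 113 ± 15.0 CPM, *Emx2* at 236 ± 40.2 against 78.0 ± 13.1 CPM and *Lhx9* at 267 ± 8.74 against 156 ± 28.2 CPM, all higher in XX, as was *Cited2*. *Nr5a1*, the nuclear receptor of gonadal and steroidogenic cells, was at 236 ± 24.4 against 171 ± 13.4 CPM with a log2 fold change of 0.47 (SE 0.10), and *Gata4* at 154 ± 16.8 against 112 ± 11.4 CPM with 0.46 (SE 0.11), and neither was a DEG. *Tcf21* and *Nr2f2*, which mark interstitial and stromal cells, were among those higher in XY, with *Tcf21* at 47.2 ± 9.26 against 218 ± 18.8 CPM.

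RefSeq gives promoter windows, from 250 bases before to 50 bases after a start site (GRCm38.p6, a build other than that of the counts, so positions are those of RefSeq), for 362 of the 509 named genes. Letters of 4 factor families that act in these lineages were searched on both strands: NR5A1 (CAAGGTCA or CAAGGCCA), SOX (ACAAAG or AACAAT), FOX (GTAAACA), and AGATAA for the GATA factors. Over all 32851 windows 3.92% held the NR5A1 letters, 27.0% the SOX letters, 3.65% the FOX letters and 11.2% the GATA letters. Among windows of autosomal genes tested the shares were 2.83%, 18.4%, 2.46% and 6.03%. For DEGs higher in XX (1181 windows) they were 4.57%, 18.5%, 2.79% and 6.86%, and for DEGs higher in XY (1425 windows) 3.02%, 21.5%, 2.53% and 6.25%. Windows of 4 genes that the results turn on are shown, 5′ to 3′ on the strand of the gene, with matched letters in capitals: *Amhr2*, the receptor for anti-Müllerian hormone, which was higher in XX and holds 1 NR5A1 match, *Cst9* of Sertoli cells with 2 SOX matches, *Hsd3b1* of steroid synthesis with 1 GATA and 1 SOX match, and *Irx3*, whose window held none of these letters. By list, SOX letters were in 3 of 13 windows of Sertoli product genes and 4 of 14 windows of Leydig genes, of which 2 held GATA letters. NR5A1 letters were in 1 of 16 windows of pre-granulosa genes and in no Leydig window, and no pre-granulosa window held FOX letters. A match is a description of letters and was not tested as a site.

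*Amhr2* (chr15:102445117-102445416, + strand): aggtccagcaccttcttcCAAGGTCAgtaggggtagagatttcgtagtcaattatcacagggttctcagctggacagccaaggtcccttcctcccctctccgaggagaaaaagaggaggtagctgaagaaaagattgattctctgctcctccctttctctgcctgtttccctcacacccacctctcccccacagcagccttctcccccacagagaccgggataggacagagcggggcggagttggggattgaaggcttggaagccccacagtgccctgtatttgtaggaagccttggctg

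*Cst9* (chr2:148834897-148835196, + strand): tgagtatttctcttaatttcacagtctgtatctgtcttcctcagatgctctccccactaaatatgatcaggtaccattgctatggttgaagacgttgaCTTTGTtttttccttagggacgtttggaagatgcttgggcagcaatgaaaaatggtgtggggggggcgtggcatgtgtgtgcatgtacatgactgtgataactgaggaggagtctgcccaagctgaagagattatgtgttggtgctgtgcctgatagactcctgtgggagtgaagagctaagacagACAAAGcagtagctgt

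*Hsd3b1* (chr3:98859745-98860044, − strand): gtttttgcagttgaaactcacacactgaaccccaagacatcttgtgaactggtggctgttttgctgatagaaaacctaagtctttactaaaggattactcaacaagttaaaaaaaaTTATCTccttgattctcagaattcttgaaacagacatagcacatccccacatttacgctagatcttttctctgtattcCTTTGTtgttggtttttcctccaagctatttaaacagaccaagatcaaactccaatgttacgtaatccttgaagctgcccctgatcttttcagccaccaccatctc

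*Irx3* (chr8:91801605-91801904, − strand): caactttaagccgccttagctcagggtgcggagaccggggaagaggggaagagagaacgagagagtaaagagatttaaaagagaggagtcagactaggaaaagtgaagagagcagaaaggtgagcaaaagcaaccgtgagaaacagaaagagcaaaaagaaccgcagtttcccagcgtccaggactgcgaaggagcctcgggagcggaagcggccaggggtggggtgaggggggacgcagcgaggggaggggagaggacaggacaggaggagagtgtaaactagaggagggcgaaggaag

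In the WNT pathway, R-spondins, WNT ligands, receptors and inhibitors were called in both directions and target genes in favour of XX. Of 7 ligand genes tested 4 were DEGs with the higher level in XX cells and 2 in XY cells. *Rspo1*, the R-spondin that starts ovarian WNT signalling, was at 252, 257, 261 and 275 CPM in XX and at 49.0, 40.9, 50.8 and 51.1 CPM in XY libraries (log2 fold change 2.45, SE 0.11, adjusted p = 2.35e-24). *Wnt4* was at 359, 347, 328 and 353 CPM in XX and at 117, 147, 106 and 111 CPM in XY libraries (log2 fold change 1.53, SE 0.12, adjusted p = 1.15e-15), and *Wnt6* at 460.1 ± 53.7 against 146 ± 21.0 CPM. The groups did not overlap for *Rspo1* or *Wnt4*. *Wnt5a*, a ligand of mesenchyme, went the other way at 115 ± 10.6 against 319.6 ± 41.3 CPM, as did *Rspo3* at 14.3 ± 1.17 against 28.0 ± 4.24 CPM. Of 19 receptors and inhibitors, 7 were higher in XY (5 by glmTreat and 3 by voom and treat, against 3 higher in XX by either), among them the secreted antagonists *Dkk1* (5.59 ± 1.32 against 31.6 ± 9.19 CPM), *Dkk3* (10.1 ± 2.51 against 45.6 ± 10.3 CPM) and *Sfrp1* (152 ± 18.99 against 323 ± 23.6 CPM), and 4 were higher in XX: *Lgr5* and *Lgr4*, receptors for R-spondins, *Rnf43*, a ubiquitin ligase that removes WNT receptors, and *Sfrp2*. *Lgr5* was at 75.9 ± 23.3 against 9.67 ± 4.20 CPM. Among 11 target genes of β-catenin 5 were DEGs higher in XX, of which *Lgr5* and *Rnf43* are also on the list of receptors and inhibitors. None was higher in XY, but DESeq2 called 1 such gene, and 2 were called without XX library 5. *Sp5* (22.5 ± 3.14 against 3.80 ± 0.521 CPM), *Axin2* (99.6 ± 18.3 against 41.2 ± 7.74 CPM) and *Lef1* (98.8 ± 13.0 against 45.5 ± 8.54 CPM) were among the 5, whereas *Nkd1*, *Tcf7* and *Znrf3* had log2 fold changes of 0.21, 0.03 and −0.08.

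Hedgehog targets, like the ligand *Dhh*, were higher in XY. Of 13 pathway genes tested 6 were DEGs higher in XY and none was higher in XX. *Gli1*, the transcription factor induced by hedgehog signalling, was at 84.7, 112, 85.7 and 116 CPM in XY and at 6.25, 7.60, 7.65 and 6.31 CPM in XX libraries (log2 fold change −3.82, SE 0.21, adjusted p = 6.98e-21). *Hhip*, a decoy receptor that is itself a target, was at 3.35 ± 1.87 against 56.2 ± 11.9 CPM, and the receptor *Ptch1*, another target, at 28.6 ± 1.18 against 169 ± 35.0 CPM. The components that relay the signal did not pass the test: *Smo*, *Sufu*, *Gas1*, *Boc* and *Cdon* had log2 fold changes of −0.38, −0.06, 0.13, 0.06 and 0.13 (SE 0.14, 0.16, 0.16, 0.14 and 0.22).

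Steroidogenic genes of foetal Leydig cells were split. Of 13 tested, 7 were DEGs higher in XY, 1 was higher in XX and 5 were neither, with a median log2 fold change of −2.10. *Cyp11a1*, which cleaves the cholesterol side chain in the first step, was at 132, 147, 118 and 177 CPM in XY and at 7.98, 14.0, 9.09 and 18.1 CPM in XX libraries (log2 fold change −3.51, SE 0.30, adjusted p = 3.66e-14). *Hsd3b1*, the next enzyme, was at 423, 347, 389 and 603 CPM in XY and at 75.0, 65.2, 83.7 and 101 CPM in XX libraries (log2 fold change −2.45, SE 0.19, adjusted p = 6.56e-16), and its relative *Hsd3b6*, which could share reads with it, was at 21.5, 3.47, 2.49 and 1.57 CPM in XY and at 1.39, 0, 0.478 and 0 CPM in XX libraries. *Cyp17a1*, which makes androgen precursors, was at 15.3 ± 2.36 against 96.7 ± 18.9 CPM, the luteinising hormone receptor *Lhcgr* at 3.59 ± 0.513 against 20.4 ± 4.16 CPM and *Prlr*, the prolactin receptor, at 36.8 ± 11.1 against 155 ± 20.6 CPM. These genes did not overlap between groups. *Star*, which carries cholesterol into mitochondria, was at 58.2 ± 8.63 against 53.7 ± 6.24 CPM and *Scarb1*, which takes up lipoprotein cholesterol, at 102 ± 13.4 against 115 ± 15.3 CPM, and neither was a DEG. *Por*, the reductase that serves these cytochromes, was the gene higher in XX (171 ± 9.87 against 107 ± 4.52 CPM), a call not made by glmTreat. *Insl3*, a hormone of Leydig cells that did not pass the filter on low counts, had 21 counts over the XY libraries and none over the XX libraries. None of the 20 cholesterol synthesis genes was a DEG, and *Hmgcs1*, an early enzyme of the pathway, had a log2 fold change of 0.41 (SE 0.09).

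Markers of interstitial progenitors were mostly higher in XY (9 of 12, with *Hes1* the 1 gene higher in XX). *Pdgfra* was at 64.5 ± 11.7 against 209 ± 44.3 CPM, *Dcn* at 137 ± 4.44 against 378 ± 43.8 CPM and *Jag1* at 6.70 ± 2.01 against 27.7 ± 3.77 CPM. *Hes1*, a target of Notch signalling in many cells, was at 989.7 ± 195 against 483 ± 73.2 CPM. Of 33 collagen, laminin and matrix genes 20 were DEGs higher in XY and *Lama1* alone was higher in XX (99.99 ± 11.6 against 50.5 ± 11.6 CPM), with a median log2 fold change of −0.72. The fibrillar collagens *Col1a2* (734 ± 139 against 1738 ± 466 CPM) and *Col3a1* (349 ± 26.8 against 738 ± 74.5 CPM), basement membrane collagen *Col4a1* (428 ± 65.7 against 676 ± 84.9 CPM) and laminin *Lama2* (3.65 ± 0.834 against 32.9 ± 9.94 CPM) were among them. The summed CPM of the list was 5075 to 5904 CPM in XX and 8663 to 10205 CPM in XY libraries, which did not overlap. By glmTreat 12 of the 20 remained calls, and that of *Col4a1* was lost without XX library 9 or XY library 5. Contractile genes were higher in XY for 8 of 12, with smooth muscle actin *Acta2* at 104 ± 21.1 against 335 ± 25.4 CPM, but *Myh11*, smooth muscle myosin, was higher in XX at 154 ± 18.6 against 33.4 ± 4.34 CPM, as was *Myl9* (258 ± 25.1 against 139 ± 12.1 CPM).

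Vascular genes were higher in XY cells. No gene of the pan-endothelial, arterial or pericyte lists was a DEG higher in XX, while 12 of 16, 10 of 14 and 5 of 7 were DEGs higher in XY. By glmTreat 5, 5 and 4 of these were called. *Cdh5*, the cadherin of endothelial junctions, was at 20.2 ± 7.09 against 51.1 ± 7.17 CPM, *Flt1*, a VEGF receptor, at 13.1 ± 2.66 against 45.0 ± 13.8 CPM and *Pecam1*, an adhesion molecule of endothelium, at 12.9 ± 2.22 against 22.2 ± 5.72 CPM. The connexin gene *Gja5*, an arterial marker, was at 30.4, 11.9, 36.2 and 23.2 CPM in XY and at 7.98, 7.60, 2.87 and 5.12 CPM in XX libraries (log2 fold change −2.05, SE 0.32, adjusted p = 7.76e-07), and *Dll4*, a Notch ligand of arteries, at 4.11 ± 1.85 against 11.4 ± 5.79 CPM. Every XY library was above every XX library for *Gja5*, while the groups overlapped for *Pecam1* and *Dll4*, whose calls were both lost without XY library 4, that of *Pecam1* also without XX library 6. The pericyte genes *Notch3* and *Cspg4* were at 11.1 ± 1.93 against 30.9 ± 2.89 CPM and 38.9 ± 3.59 against 108 ± 13.7 CPM. Among the ligands, *Pdgfb* (4.18 ± 0.805 against 9.79 ± 2.25 CPM), *Angpt1* (2.64 ± 1.27 against 7.35 ± 1.97 CPM) and *Angpt2* (5.94 ± 1.62 against 15.2 ± 2.38 CPM) were DEGs higher in XY, and *Vegfa* (log2 fold change −0.38) and *Pdgfa* (0.21) were not DEGs.

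Several blood cell transcripts were also higher in XY. Of 10 erythroid genes tested 7 were DEGs higher in XY, and their summed CPM was 961 to 2197 CPM in XX and 2746 to 8084 CPM in XY libraries. The globin genes come in near-identical pairs (*Hba-a1* and *Hba-a2*, *Hbb-bs* and *Hbb-bt*), so the split of reads between members is uncertain. Of 15 macrophage genes 4 were DEGs higher in XY (*Aif1*, *Tyrobp*, *Fcer1g* and *Laptm5*), with a summed CPM of 43.1 to 60.7 CPM in XX and 57.4 to 129.8 CPM in XY libraries. By glmTreat none of the 4 was called. Of 5 neural crest and neuron genes tested *Tubb3*, a neuronal tubulin, was the only DEG (5.09 ± 3.88 against 23.1 ± 13.9 CPM), and the groups overlapped for it (log2 fold change −2.04, and −2.78 without XX library 5). The list, which does not hold the glial gene *Sox10*, had a summed CPM of 7.65 to 42.2 CPM in XX and 16.5 to 119 CPM in XY libraries. *Foxd3*, a defining marker of that lineage, had 1 count in the 8 libraries. Of 3 adrenal cortex genes tested only *Mc2r* was a DEG (1.97 ± 1.62 against 6.86 ± 2.57 CPM), and the list summed to 0.957 to 6.70 CPM in XX and 8.43 to 13.4 CPM in XY libraries. The part of these cell types in the gonad-type differences was not tested.

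**Figure D3:**
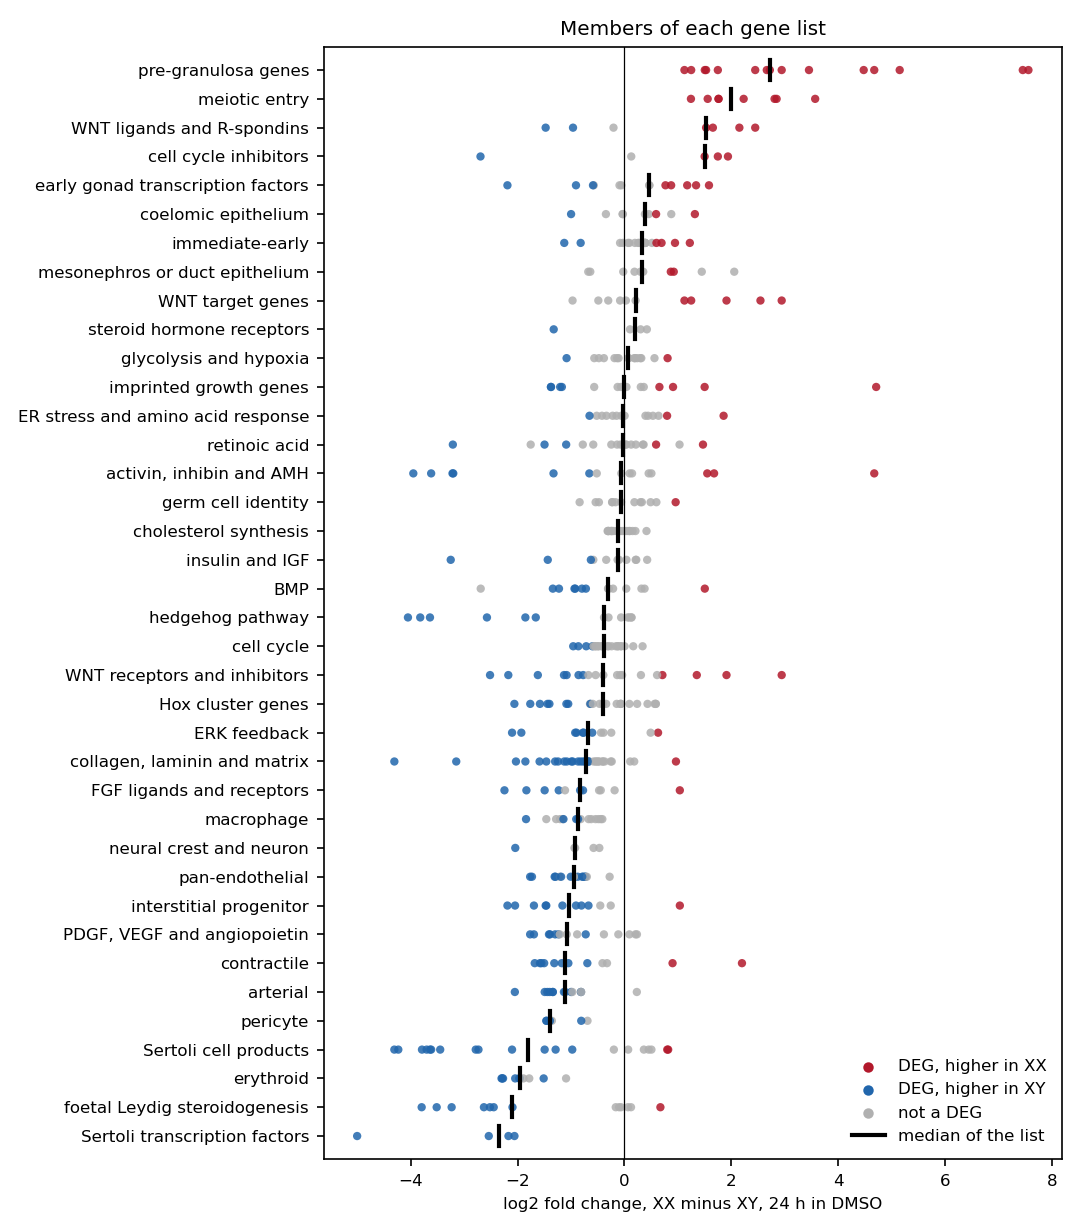
Log2 fold change (XX minus XY) of each tested member of the gene lists with at least 4 tested members, ordered by the median of the list (black bar), with DEGs higher in XX in red, DEGs higher in XY in blue and other genes in grey. Pre-granulosa and meiotic entry genes lie wholly to the right of 0 and Sertoli transcription factors, erythroid, pericyte and pan-endothelial genes wholly to the left, while cholesterol synthesis genes cluster at 0.

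In the transforming growth factor β family, 9 of 15 activin, inhibin and AMH pathway genes tested were DEGs, 3 in favour of XX and 6 in favour of XY. *Inhba*, the activin A subunit, was at 170.2, 234, 154 and 213 CPM in XY and at 22.2, 20.1, 21.0 and 19.3 CPM in XX libraries (log2 fold change −3.22, SE 0.19, adjusted p = 2.6e-20), the reverse of *Fst*. *Lefty1* and *Lefty2*, Nodal antagonists whose similar sequences could share reads, were at 0.467 ± 0.655 against 4.54 ± 0.998 CPM and 0.501 ± 0.36 against 8.87 ± 5.37 CPM. Without XX library 4 the fitted log2 fold change of *Lefty1* was −4.73 in place of −3.20. The study reports both genes as higher in XY than in XX germ cells before culture. The part of residual germ cells in the *Lefty1* and *Lefty2* values was not tested. *Amhr2*, the AMH receptor, was at 467 ± 91.8 against 146 ± 33.1 CPM, higher in XX, as was the follistatin-like gene *Fstl3* (20.3 ± 2.93 against 7.19 ± 1.60 CPM). The activin receptors *Acvr1b*, *Acvr2a* and *Acvr2b* were not DEGs (log2 fold changes 0.10, 0.14 and −0.06). Of 15 BMP pathway genes, *Bmp2* was higher in XX (89.8 ± 11.9 against 31.4 ± 6.17 CPM) and 6 were higher in XY, among them *Bmp4* (11.2 ± 3.89 against 18.9 ± 2.95 CPM) and the BMP-induced genes *Id1*, *Id2* and *Id3* (*Id3* at 103 ± 16.8 against 263 ± 49.4 CPM). The call of *Bmp4* was lost without XX library 6, XX library 9 or XY library 4. The receptors *Bmpr1a*, *Bmpr1b* and *Bmpr2* had log2 fold changes of −0.31, 0.32 and −0.21 and were not DEGs.

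Of 18 retinoic acid genes tested 5 were DEGs, 2 in favour of XX and 3 in favour of XY, against 8.83% and 10.6% of all autosomal genes tested. *Cyp26b1*, the enzyme that degrades retinoic acid in the testis, was at 72.6, 71.1, 69.0 and 75.1 CPM in XY and at 9.72, 9.57, 2.87 and 7.10 CPM in XX libraries (log2 fold change −3.21, SE 0.21, adjusted p = 3.5e-18). *Aldh1a1*, which makes retinoic acid, was also higher in XY at 173 ± 26.1 against 368 ± 33.2 CPM, while *Aldh1a2*, another such enzyme, was a DEG higher in XX at 132 ± 5.30 against 87.6 ± 10.5 CPM, as was the retinal reductase gene *Dhrs3* (300.2 ± 38.9 against 108 ± 10.9 CPM). The call of *Aldh1a2* was lost without XY library 2 or 3. The retinoic acid receptors *Rara*, *Rarb* and *Rarg* were not DEGs. Among FGF genes, 6 of 11 were DEGs higher in XY, including the ligands *Fgf9* (6.34 ± 3.05 against 18.1 ± 3.93 CPM), *Fgf10* (2.20 ± 1.48 against 11.5 ± 2.60 CPM) and *Fgf2* (9.13 ± 1.30 against 21.0 ± 9.43 CPM), and *Fgfr2* alone was higher in XX (49.1 ± 9.34 against 23.5 ± 8.79 CPM). Of 12 feedback genes of the ERK pathway 7 were higher in XY, with *Etv1* at 9.86 ± 1.65 against 42.4 ± 4.40 CPM, *Spry1* at 5.99 ± 2.81 against 24.0 ± 2.07 CPM and *Dusp6* at 41.9 ± 14.3 against 71.8 ± 6.22 CPM, and *Dusp5* was higher in XX (59.8 ± 20.9 against 37.7 ± 12.3 CPM). By glmTreat 2 of the 7 were called and *Dusp5* was not. The calls of *Dusp6* (without XX library 9) and *Dusp5* (without XX library 4, XX library 6 or XY library 5) rested on single libraries, and the groups overlapped for *Dusp5* and *Fgf2*. Of 18 immediate-early genes 4 (*Egr2*, *Btg2*, *Ier3* and *Dusp1*) were DEGs higher in XX and 2 (*Ier5* and *Fosl2*) higher in XY, whereas *Fos* was at 721 ± 131 against 549.8 ± 166 CPM and *Egr1* at 669 ± 90.7 against 560.3 ± 52.2 CPM and neither was a DEG.

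Of 5 cell cycle inhibitor genes 3 were DEGs higher in XX and 1 was higher in XY. *Cdkn1c*, which encodes p57, was at 1505, 1201, 1380.1 and 1447 CPM in XX and at 473, 382, 478 and 626 CPM in XY libraries (log2 fold change 1.5002, SE 0.13, adjusted p = 6.08e-14), and *Cdkn1a* (p21) was at 103 ± 11.4 against 27.2 ± 5.89 CPM, the third being *Cdkn1b* (p27). *Cdkn2c*, which encodes p18, was the gene higher in XY at 0.613 ± 0.153 against 4.18 ± 2.25 CPM. All but 4 of 25 cell cycle genes failed to reach the threshold, and those 4, *Plk1*, *E2f1*, *Aurka* and *Mki67*, were higher in XY, with *Mki67* at 131 ± 19.1 against 199 ± 38.5 CPM. None of these 4 was called by glmTreat, and the call of *Mki67* was lost without XX library 4 or 6 or XY library 2 or 3. The median log2 fold change of the list was −0.39, against −0.03 for all autosomal genes tested. The imprinted gene *Phlda2* was at 10.4 ± 4.01 against 0.332 ± 0.318 CPM, the largest difference of its list, and *Meg3* and *Rian* of the *Dlk1* cluster were higher in XY at 256 ± 48.0 against 578 ± 109.7 CPM and 42.5 ± 6.29 against 110.4 ± 17.8 CPM. *Igf2* and *H19* were not DEGs. Of 11 insulin and IGF genes 3 binding proteins were higher in XY, of which *Igfbp7* was at 30.8 ± 7.38 against 297 ± 42.6 CPM. In the glycolysis and hypoxia list 1 gene of 16 was a DEG in each direction, and in the ER stress and amino acid list 2 of 14 were higher in XX and 1 higher in XY, among them *Slc7a11* (5.39 ± 2.12 against 1.40 ± 0.53 CPM) and *Asns* (112 ± 21.9 against 64.7 ± 11.3 CPM). The shares to set beside these counts and that of the cell cycle list are 8.83% (XX) and 10.6% (XY) of all autosomal genes tested. Of 4 steroid hormone receptors tested only *Pgr*, the progesterone receptor, was a DEG (2.54 ± 0.644 against 6.13 ± 2.73 CPM), a call lost without XX library 4, XX library 5 or XY library 3. The oestrogen receptor *Esr1* was at 21.7 ± 2.78 against 16.1 ± 2.39 CPM.

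The Hox genes differed by cluster. Each of the 6 HoxD genes tested was a DEG higher in XY (log2 fold changes −2.06 to −1.05), against none of 6 HoxA genes (−0.65 to 0.59), 1 of 5 HoxB genes (*Hoxb9*) and 1 of 6 HoxC genes (*Hoxc6*), and no Hox gene was higher in XX. *Hoxd9* was at 39.1 ± 11.4 against 83.9 ± 13.5 CPM, and *Hoxd10* had the largest fold change of the 6 (5.57 ± 1.87 against 23.5 ± 1.32 CPM). This split by cluster was seen after the values were known.

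Transcripts of germ cells were present in the GFP-negative fraction, and those of meiosis were higher in XX. Of 13 germ cell identity genes tested, 12 were not DEGs and *Sox2*, a pluripotency factor, was higher in XX (14.3 ± 6.32 against 7.52 ± 2.89 CPM), with groups that overlapped and a call lost without XX library 9 or XY library 2, 3 or 4. The 13 genes summed to 170.3 to 325 CPM in XX and 185 to 289 CPM in XY libraries, which overlapped. *Dazl* was at 63.5 ± 20.2 against 42.4 ± 7.79 CPM and *Dppa3* at 43.2 ± 13.6 against 60.7 ± 10.3 CPM. *Pou5f1*, whose regulatory sequence drives the GFP used for sorting, did not pass the filter on low counts and had 21 counts over the XX libraries and 44 over the XY libraries. All 8 meiotic entry genes tested were DEGs higher in XX (median log2 fold change 2.00), with summed CPM of 163 to 243 CPM in XX and 34.5 to 53.3 CPM in XY libraries. *Stra8*, the retinoic acid-induced gatekeeper of meiosis, was at 11.5, 13.0, 6.70 and 15.4 CPM in XX and at 1.43, 0.744, 1.34 and 0 CPM in XY libraries (log2 fold change 3.57, SE 0.53, adjusted p = 2.68e-07), and *Smc1b*, a meiotic cohesin subunit, at 94.8, 78.5, 74.1 and 112 CPM in XX and at 21.5, 16.1, 15.5 and 25.2 CPM in XY libraries. The lowest XX library was above the highest XY library for both. In a sort that removes GFP-positive cells, these transcripts cannot be assigned to a cell type, and the part of residual germ cells was not tested. The duct epithelium genes (2 of 10, *Epcam* and *Pax8*, DEGs higher in XX, summed CPM 173 to 205 CPM in XX and 139.5 to 197 CPM in XY libraries) and coelomic epithelium genes (2 higher in XX, *Krt19* and *Aldh1a2*, and *Upk1b* higher in XY, of 9, summed CPM 629 to 724 CPM in XX and 416 to 562 CPM in XY libraries, which did not overlap) were called in both directions or in favour of XX. *Pax2*, which defines the mesonephric ducts, had 5 counts in XX and 9 in XY libraries.

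The XX-XY difference at 24 h was next set against that of uncultured E12.5 cells, 8 libraries of the same library set that share no library with the 24 h groups. Before culture 1136 autosomal genes (7.81%) were DEGs with the higher level in XX and 1378 (9.48%) with the higher level in XY cells. Of the 24 h DEGs higher in XX, 677 were also higher in XX before culture (52.7% of the 24 h list, 59.6% of the list before culture), and of those higher in XY 724 (47.1% and 52.5%). Opposite calls were made for 33 genes higher in XX at 24 h and in XY before culture, and for 6 the reverse. By the interaction contrast, the difference had changed by at least 1.5-fold at an FDR below 0.05 for 869 autosomal genes. It moved toward XX for 482 (3.31%) and toward XY for 387 (2.66%). With scaling by total counts these were 392 and 462, and the tests against a 1.5-fold threshold called 246 in all (glmTreat) and 114 (voom and treat).

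**Figure D4:**
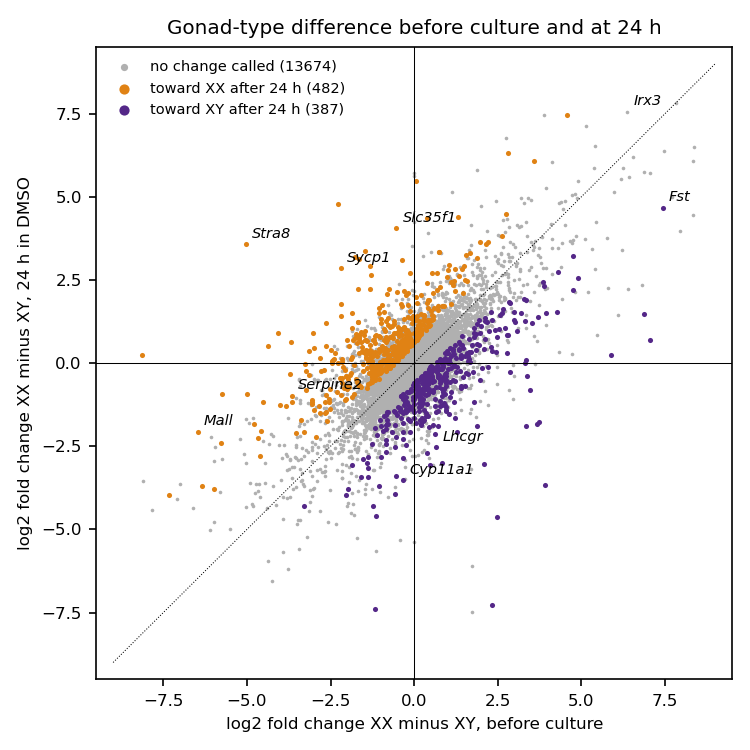
Log2 fold change (XX minus XY) of each autosomal gene before culture (x axis) and at 24 h in DMSO (y axis), with genes whose difference moved toward XX in orange (482) and toward XY in purple (387) by the interaction contrast. The dotted line marks equal differences, and *Stra8* and *Sycp1* lie in the upper left quadrant, higher in XY before culture and higher in XX at 24 h.

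Of the 13 Leydig genes 3 moved toward XY and 3 toward XX. *Cyp11a1* was at 26.6 ± 6.87 CPM in XX and 32.3 ± 6.39 CPM in XY cells before culture and changed by 2.13 (log2, 24 h minus uncultured) in XY and by −1.05 in XX cells (interaction −3.18, SE 0.45, adjusted p = 1.23e-06). *Lhcgr* moved likewise (interaction −3.18, adjusted p = 1.38e-05), from 7.40 ± 2.36 CPM in XX and 4.66 ± 2.69 CPM in XY cells. *Hsd3b1* was already higher in XY before culture (35.4 against 82.2 CPM) and the difference widened (interaction −1.20, adjusted p = 0.00428). In contrast *Star*, *Scarb1* and *Fdxr* moved toward XX (interactions 0.94, 0.68 and 0.92). None of these 3 was called by glmTreat, and the call of *Scarb1* was lost without XY 24 h library 4 and that of *Star* without XX library 5 of either time, XX 0 h library 4 or XY 0 h library 5 or 6. The apelin receptor gene *Aplnr*, of endothelium and its precursors, went from 23.9 ± 4.26 CPM in XX and 35.7 ± 9.12 CPM in XY cells to 3.96 and 66.9 CPM (interaction −3.36). Among genes averaging 5 CPM or more over the 16 libraries *Rassf5* had the largest move toward XY (−3.48), which was −4.68 without XX 24 h library 5 and lost its call without XX 0 h library 5, and *Npnt*, a matrix protein gene, was a DEG higher in XX before culture (48.5 against 6.60 CPM) and no DEG at 24 h (14.2 against 17.1 CPM).

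Pre-granulosa genes moved in both directions. The differences of *Fst*, *Bmp2*, *Wnt4*, *Axin2* and *Lef1* narrowed, and those of *Irx5*, *Kctd14*, *Lgr5* and *Runx1* widened, that of *Irx5* not without XY 24 h library 4. *Fst* fell in XX cells, from 205, 256, 298 and 304 CPM before culture (interaction −2.75, adjusted p = 8.71e-05). Part of this interaction was a rise in XY cells, which held only 12 counts of *Fst* before culture. *Wnt4* rose in XY cells, from 54.2 ± 7.72 CPM (interaction −1.47, adjusted p = 1.98e-08). *Lgr5* fell in XY cells, from 42.1 ± 6.996 CPM, while XX cells were at 87.5 ± 16.9 CPM before culture (interaction 1.89, adjusted p = 0.000311). Of the 20 Sertoli product genes 13 moved toward XX and none toward XY. *Serpine2*, an inhibitor of serine proteases, was at 355 ± 52.0 CPM in XY and 27.0 ± 10.6 CPM in XX cells before culture, and at 24 h its difference was smaller (92.1 ± 30.0 against 179 ± 39.5 CPM, interaction 2.69). *Gdnf* and *Ptgds* likewise narrowed (interactions 2.18 and 1.82), with XY cells lower than before culture (log2 change −1.16 and −0.69). The rest of each interaction was a rise in XX cells. *Gdnf* had 6 counts in XX cells before culture, and its interaction was lost when any 1 of 11 of the 16 libraries was left out and was 4.01 without XX 0 h library 2. *Sox9* and *Dhh* showed no change that passed the test (interactions 0.49 and 1.09, adjusted p = 0.352 and 0.198), nor did *Foxl2* (−0.81, adjusted p = 0.555) or *Irx3* (1.19, adjusted p = 0.0588).

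Of the 8 meiotic entry genes 4 were DEGs higher in XY before culture and 1 (*Rec8*) was a DEG higher in XX, and at 24 h all 8 were higher in XX. *Stra8* was at 0.427, 0.445, 0 and 0.375 CPM in XX and at 16.1, 13.3, 11.4 and 11.4 CPM in XY libraries before culture, so that XY cells held more of it, with 104 counts against 3 and no overlap, and at 24 h XX cells held more (interaction 8.59, SE 0.88, adjusted p = 5.46e-10). *Sycp1*, of the synaptonemal complex, went from 1.68 against 8.36 CPM (XX against XY) to 31.7 against 4.42 CPM (interaction 5.04), and *Smc1b* from 9.69 against 28.8 to 89.9 against 19.6 CPM (3.90). The germ cell identity genes summed to 125 to 162 CPM in XX and 243 to 403 CPM in XY libraries before culture. *Pnmt*, the enzyme that makes adrenaline, also reversed, from 3.84 against 19.3 to 7.12 against 0.186 CPM (7.06), with 3 counts over the XY libraries at 24 h, all in XY library 3. Without that library the XY cells held no count of it. *Slc35f1* gained a difference in favour of XX (2.60 against 3.83 before, 41.5 against 2.46 CPM at 24 h), and *Mall*, a membrane raft protein gene, lost most of its XY excess (0.474 against 46.2 before, 1.05 against 4.82 CPM at 24 h). The erythroid sum was 8925 to 15814 CPM in XX and 15169.7 to 19471 CPM in XY libraries before culture, above that of the same gonad type at 24 h in each case.

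**Figure D5:**
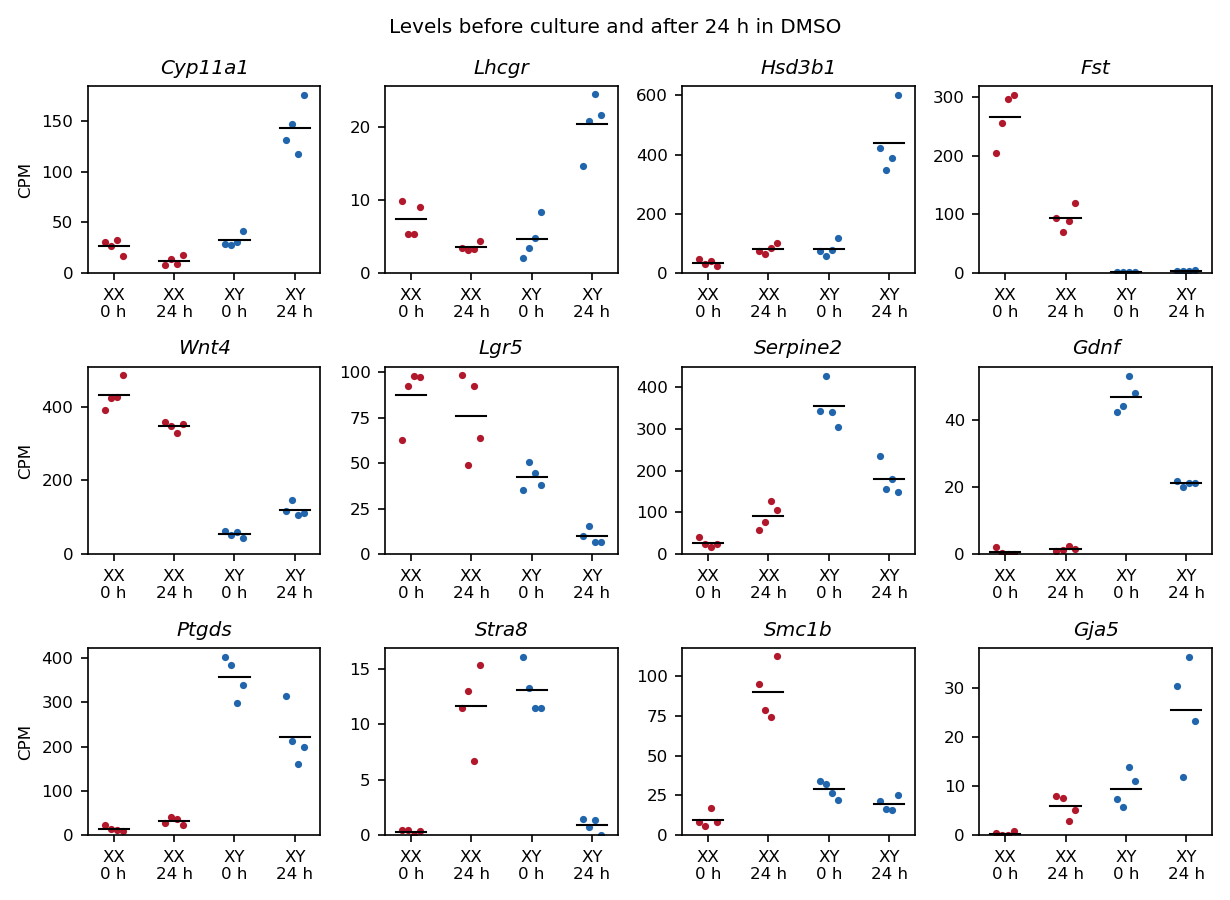
CPM of 12 genes whose XX-XY difference changed during culture, in each library (points) with the group mean (bar), for XX (red) and XY (blue) cells before culture (0 h) and after 24 h in DMSO. *Cyp11a1*, *Lhcgr* and *Hsd3b1* are highest in XY cells at 24 h, *Fst* is highest in XX cells before culture, and *Stra8* is highest in XX cells at 24 h and in XY cells before culture.

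After 72 h in DMSO, in libraries of another set, so that the time and the set cannot be told apart, XX cells had the higher level of 1367 autosomal DEGs (9.4%) and XY cells of 1563 (10.7%). Of the 24 h DEGs higher in XX, 841 were also DEGs higher in XX at 72 h (65.5% of the 24 h list, 61.5% of the 72 h list), and of those higher in XY 960 (62.5% and 61.4%). Opposite calls were few: 8 genes higher in XX at 24 h were higher in XY at 72 h, and 10 the reverse. In all 3 comparisons 507 genes were higher in XX and 520 higher in XY. *Irx3* had log2 fold changes of 6.37, 7.56 and 7.43 before culture, at 24 h and at 72 h, *Foxl2* of 5.96, 5.15 and 3.67, *Sox9* of −2.66, −2.17 and −1.80, and *Cyp11a1* of −0.33, −3.51 and −2.50.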

How the data were processed

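GFP-negative cells were sorted from E12.5 gonads, and 3′ RNA-seq libraries were made from pools of gonads. The values are counts of UMIs per gene that the authors deposited as 1 table of 42422 genes and 40 columns. According to the methods and code of the study, written for its germ cell libraries, reads were aligned with Rsubread to GRCm39, assigned to GENCODE exons by strand and deduplicated by UMI in scPipe. The versions of these tools are not given in the sources used here, and the labels name GRCm39, edgeR and limma. The label text names 39 of the columns, and the other 1 column was not used. Gene names and positions came from GENCODE M39, in which 40391 gene identifiers were found (99.02% of the counts of the 8 libraries).

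The 39 libraries were fitted together, with 1 coefficient per group (10 groups), in edgeR 4.0.16 and R 4.3.3, after filterByExpr by group (15390 genes kept) and TMM scaling, and tested by quasi-likelihood. FDRs were adjusted over all genes tested. DEGs passed an FDR below 0.05 at 1.5-fold or more. The study tested with voom quality weights and treat, which was run as an alternative with limma 3.58.1, beside glmTreat, DESeq2 1.42.0, other scaling, other filters, fewer groups, a replicate block and leaving out each library. The procedure was tested on simulated counts. Replicates were pools of gonads, so p-values measure the spread between pools.

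Members and gene lists were chosen with earlier results of these data known. Genes named are members of 39 lists, the 12 DEGs in each direction with the largest difference from those averaging 5 CPM or more without overlap between groups, and the 5 in each direction with the largest interaction. Counting intervals are exact and cover counting error only. Between 20109 and 23096 genes were detected per library at totals of 2109481 to 4836550 counts, and lower counts gave wider errors. Genes on the X and Y chromosomes were tested but left out of the text.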

Additional observations from a re-analysis of the deposited data

Results flagged for a closer look

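The XX-XY difference was other than that before culture, by the interaction contrast of edgeR's quasi-likelihood test, for 57 of the genes given values above. Values below are log2 changes of the difference, positive where it moved toward XX. In 11 genes of Sertoli cells the move was toward XX: *Serpine2* (2.69), *Mro* (2.53), *Hsd17b1* (3.51), *Gdnf* (2.18), *Gatm* (1.96), *Ptgds* (1.82), *Inhbb* (1.32), *Inha* (1.00), *Clu* (0.78), *Fgf9* (1.31) and *Pdgfa* (1.31). The germ cell and meiotic genes also moved toward XX, by 8.59 for *Stra8*, 5.04 for *Sycp1*, 3.90 for *Smc1b*, 2.43 for *Sox2* and 2.30 for *Dazl*. In steroidogenic genes the moves went both ways, toward XY for *Cyp11a1* (−3.18), *Lhcgr* (−3.18) and *Hsd3b1* (−1.20) and toward XX for *Star* (0.94), *Fdxr* (0.92) and *Scarb1* (0.68). Among these genes the call was lost without any 1 of 11 of the 16 libraries for *Gdnf*, of 8 for *Hsd17b1*, of 7 for *Fgf9*, of 5 for *Star* and without XY 24 h library 4 for *Scarb1*. Without XX 0 h library 5 the value of *Hsd17b1* was 6.47, and without XX 0 h library 2 that of *Gdnf* was 4.01.

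WNT ligands and receptors moved toward XX for *Lgr5* (1.89) and *Wnt6* (1.07) and toward XY for *Wnt4* (−1.47) and *Wnt5a* (−0.68). Of 11 target genes 4 moved toward XY, *Sp5* (−2.35), *Nkd1* (−1.39), *Axin2* (−0.94) and *Lef1* (−0.88), and of 19 receptors and inhibitors 3 did, among them *Dkk3* (−1.05) and *Sfrp1* (−0.76), while *Lgr5*, on both lists, was the 1 that moved toward XX. Of the other ovarian genes *Irx5* (2.89), *Kctd14* (2.04), *Runx1* (1.74), *Trpc7* (2.47) and *Gm12361* (3.53) moved toward XX, and *Fst* (−2.75), *Bmp2* (−1.69), *Fgfr2* (−1.51) and *Cdkn1a* (−1.34) toward XY. Further genes, which do not form 1 list, moved toward XY at *Aplnr* (−3.36), *Npnt* (−3.11), *Lama2* (−1.77), *Hoxd10* (−1.39), *Id3* (−1.25), *Smoc2* (−1.02), *Dcn* (−0.88), *Myl9* (−0.89), *Boc* (−0.88) and *Rassf5* (−3.48), and toward XX at *Gja5* (2.54) and *Lama1* (0.86). The remaining moves were toward XX, at *Pnmt* (7.06), *Slc35f1* (4.58), *Mall* (4.42) and *Aldh1a1* (0.96). Leaving out 1 library ended the call for 10 of the 16 libraries at *Dkk3* and at *Gm12361*, for 8 at *Gja5*, for 7 at *Smoc2*, for 5 at *Hoxd10* and for 2 at *Wnt5a* (XY 0 h library 2 and XY 24 h library 3). It did so for 1 library at *Trpc7* and *Lama1* (XY 0 h library 5), *Lama2* (XX 0 h library 2), *Rassf5* (XX 0 h library 5) and *Irx5* (XY 24 h library 4). Without 1 library the value was 4.48 for *Gm12361* (XY 24 h library 5), 3.40 for *Gja5* (XX 0 h library 5), 5.64 for *Mall* (XX 0 h library 5), 3.69 for *Irx5* (XY 24 h library 3), −4.68 for *Rassf5* (XX 24 h library 5) and −0.44 for *Smoc2* (XX 0 h library 2). All XY counts of *Pnmt* at 24 h were in XY library 3.

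In 20 of 334 sets of 4 libraries (a gene in 1 group) 1 library stood apart from the other 3 by Dixon's criterion, which chance alone meets in about 1 of 20 sets. XY library 2 was the highest for *Col9a3* (295 CPM), *Dmrt1* (26.5 CPM) and *Hsd3b6* (21.5 CPM) and the lowest for *Pdgfb* (6.44 CPM). XY library 3 was the lowest for *Acvr2b* (101.9 CPM), and XY library 5 the lowest for *Kcns2* (13.0 CPM). Among XX libraries, library 9 was the highest for *Nr5a1* (272 CPM) and the lowest for *Gas1* (60.3 CPM) and *Irx5* (35.5 CPM), and library 5 the highest for *Fgf10* (4.42 CPM) and *Lypd8l* (22.1 CPM). XX library 4 was the highest for *Acvr2b* (144 CPM), and XX library 6 the highest for *Msc* (1.44 CPM) and the lowest for *Nt5e* (0.478 CPM). In the 6 other sets 1 library alone held counts, at *Amh* (0.981 CPM, XX library 5) and, among XY libraries, at *Cga* (0.248 CPM), *Gpr55* (0.959 CPM), *Hsd17b2* (0.384 CPM), *Lypd8l* (0.715 CPM) and *Pnmt* (0.744 CPM).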

How the results depend on the processing

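The 2821 DEGs at 24 h fell to 1528 by glmTreat (698 higher in XX, 830 higher in XY) and to 1110 by voom and treat (543 and 567), and the 869 interaction calls to 246 (149 toward XX, 97 toward XY) and 114 (93 and 21); both methods test against the 1.5-fold threshold itself. Under the other alternatives each count stayed within 1.5 times its value, and 2487 to 2976 genes were DEGs at 24 h with other scaling, filters, samples or DESeq2. Leaving out 1 library at a time gave 2586 to 2737 DEGs (1221 to 1297 higher in XX, 1332 to 1495 higher in XY) and 735 to 908 interaction calls.

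Replicate numbers 4 and 5 occur in both groups. Deviations from the group means correlated at −0.12 between the libraries numbered 4 and at −0.07 between those numbered 5. Pairs with unlike numbers were at −0.07 to 0.09. Whether libraries of the same number share an origin cannot be told from these correlations. With the replicate block 2383 genes were DEGs (1101 and 1282) and 620 had an interaction call (361 and 259).

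Of 256 named DEGs, 248 to 252 were still called with the other scaling and filters and by DESeq2, 174 by glmTreat, 144 by voom and treat, 222 with the replicate block and 227 to 243 with 1 library left out, and none changed sign. Genes with few counts, such as *Insl3* and *Pou5f1*, did not pass the filter and were not tested. Fold changes of genes at or near 0 in 1 group depend on the prior count.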

Other observations

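In 23 autosomal DEGs the lower group had no count in any of its 4 libraries. The genes named here were chosen after their values were seen. XX cells alone held counts of 9, among them *Tshr*, the thyrotropin receptor, at 9.37, 5.40, 1.91 and 11.4 CPM in XX libraries 4, 5, 6 and 9, at least 34.4-fold higher than a floor of 3 counts over the XY libraries. *A1bg*, a plasma glycoprotein gene, was at 9.72, 7.60, 10.5 and 7.88 CPM (at least 42.4-fold), and *Wnt10a*, a WNT ligand gene, at 2.43, 1.47, 2.87 and 4.73 CPM (at least 13.0-fold). *Tshr* codes for a receptor whose ligand contains the subunit encoded by *Cga*, which was also higher in XX.

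XY cells alone held counts of the other 14. *Stk32a*, a protein kinase gene, was at 8.22, 16.1, 4.60 and 7.47 CPM in XY libraries 2 to 5 (at least 34.7-fold higher than the floor), *Lrrc55*, which encodes an auxiliary subunit of potassium channels, at 8.58, 12.6, 6.71 and 6.29 CPM (at least 33.4-fold) and *Clps*, the pancreatic colipase gene, at 8.58, 9.67, 6.33 and 7.08 CPM (at least 30.2-fold). *Prok2*, a ligand of the receptor encoded by *Prokr2*, had 18 counts over the XY libraries, and both genes were DEGs higher in XY. A count of 0 here limits detected molecules and not expression in single cells.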
